A study of Rattus norvegicus with 151 samples.

Results

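The livers of rats given 500 mg/kg of propylene glycol phenyl ether (PPH) were compared with the livers of rats given 500 mg/kg of 4-methylcyclohexanemethanol (MCHM). PPH carries an aromatic ring, an ether bond and a glycol alcohol, while MCHM is a saturated ring with a primary alcohol. Both were among the substances lost in a spill upstream of a drinking water intake in West Virginia. For each gene the quantity described is the PPH change (500 minus its own 0 mg/kg animals) minus the MCHM change (500 minus its own 0 mg/kg animals), so a positive difference means a larger change with PPH. It rests on 18 of the series' 151 arrays: 4 livers at 500 mg/kg PPH, 5 livers of the PPH vehicle animals, 4 livers at 500 mg/kg MCHM and 5 livers of the MCHM vehicle animals. All were male Harlan Sprague-Dawley rats of 6 to 8 weeks that were gavaged daily for 5 days, and the vehicle was corn oil. Each array held RNA of whole liver from 1 rat, so the p-values measure the spread between rats of 1 sex and strain. Levels are log2 array intensities, 1 probe set stands for each gene, and all 81 liver arrays shared 1 estimate of the spread in limma. A gene passed with an adjusted p (Benjamini-Hochberg, over 11624 genes) under 0.05. The hepatocyte transcript Alb lay between 14.80 and 14.85 on all 18 arrays.

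Liver cells meet foreign chemicals with sensors that each switch on their own genes. The nuclear receptors CAR and PXR raise oxidizing cytochrome P450 enzymes such as the Cyp3a family, PPAR-alpha raises the enzymes that burn fatty acids in peroxisomes and mitochondria, and Nrf2 raises antioxidant and glutathione-conjugating enzymes through antioxidant response elements in DNA. The comparison asks which of these, and which other genes, PPH and MCHM changed to unequal extents.

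The PPH and MCHM arrays differed before any treatment. Genes that rose at 500 mg/kg PPH mostly lay above the PPH vehicle livers at 1, 10 and 1000 mg/kg too, with values given below. Some, Mif and Thyn1 among them, had a lower mean in the PPH vehicle livers than in every PPH dose group. The differences of the main genes and lists are therefore given with and without the vehicle animals. Between the vehicle groups 2019 of 11624 genes differed (17.4% of those tested, 28.9% at an unadjusted p under 0.05, 845 higher and 1174 lower in the PPH set). Between the 500 mg/kg groups 2031 did (17.5%, with 6.5% lower with PPH, and 30.1% at an unadjusted p under 0.05). The level of the 5′ beta-actin control minus that of the 3′ control, a sign of RNA or labelling quality, was -1.23 to -1.07 log2 units at 500 mg/kg PPH and -1.27 to -1.11 in PPH vehicle livers, against -2.2 to -1.86 at 500 mg/kg MCHM and -2.1 to -1.76 in MCHM vehicle livers. It did not overlap between the chemicals at any dose, and chemical and array set cannot be told apart in direct comparisons. Subtracting each set's own vehicle removes a constant offset of a set. The alternative baseline, each set's own 1 and 10 mg/kg animals in place of the vehicle animals, was chosen after the data had been seen.

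Few genes separated the chemicals. Mif, Thyn1 and C5l1 were higher and Lactb2 was lower with PPH, which makes 4 genes with a different change at 500 mg/kg (0.0344% of those tested, 0.0258% higher and 0.0086% lower), and 1152 had an unadjusted p under 0.05 (9.91%). Each chemical by itself changed more genes. PPH changed 145 against its vehicle (1.25%), of which 19 fell, and MCHM raised 67 and lowered 67 (1.15% together). 9 genes passed for both, which is 6.21% of the PPH genes and 6.72% of the MCHM genes, and all 9 moved in the same direction. Across the 11624 genes the PPH and MCHM changes had a Pearson r of 0.15 and a Spearman rho of 0.136, where the changes with crude MCHM, the technical mixture, and with MCHM had an r of 0.497. Genes are not independent replicates, so these are descriptions. The 95% interval of the difference lay within 1.5-fold in either direction for 75.5% of the genes and within 2-fold for 96.1%, with a median SE of 0.15 log2 units. With single arrays left out the 4 became 0 to 14, and the 14 came without animal MCHM-41 of 500 mg/kg. The 145 PPH genes became 33 without animal PPH-231 and 40 without animal PPH-232, both of 500 mg/kg, and the MCHM genes became 54 to 162, with 54 without animal MCHM-40 of 500 mg/kg (41 risen and 13 fallen). Among the calls that passed in all 9 fits that left out 1 array of the 2 groups compared were the PPH rises of Mif, Gstt3 and Nqo1 and the MCHM rises of Cyp3a18, Abhd1, Pex14, Ehhadh and Tm7sf2.

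**Figure D1:**
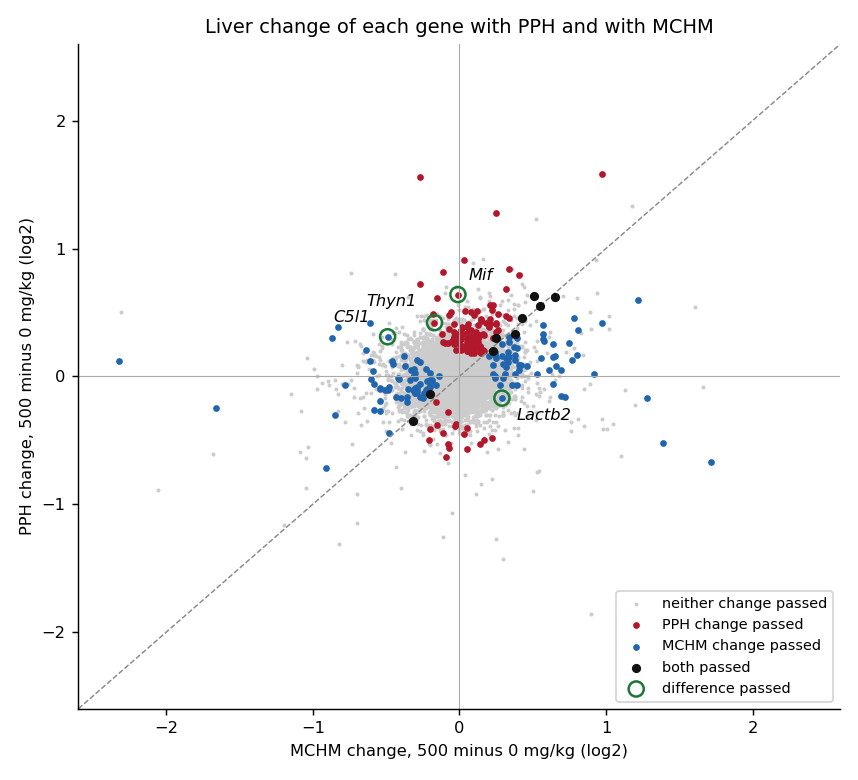
Each point is 1 of the 11624 genes, with its log2 change at 500 mg/kg MCHM on the x axis and at 500 mg/kg PPH on the y axis, each against its own vehicle livers. Red points passed for PPH alone, blue points for MCHM alone and black points for both, the dashed line marks equal changes, and green rings mark the 4 genes whose difference passed (Mif, Thyn1, C5l1 and Lactb2).

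Without the vehicle animals other genes separated the chemicals. Against the 8 PPH animals at 1 and 10 mg/kg, limma called 0 genes at 500 mg/kg PPH (569 at an unadjusted p under 0.05, 4.9%, lowest adjusted p 0.637). Genes that rose at 500 mg/kg PPH against vehicle had a median change of 0.32 there. Against the same vehicle livers it was 0.2 at 1, 0.22 at 10 and 0.23 at 1000 mg/kg. All of them lay above 0 at 10 mg/kg. Of these genes 61 passed as lower in the PPH than in the MCHM vehicle livers (10.1% of all genes did), and 1 as higher. The part of the vehicle livers in these changes was not tested. MCHM at 500 mg/kg against its own 1 and 10 mg/kg animals changed 393 genes (152 risen and 241 fallen, 3.38%). The difference between the chemicals then passed for 8 genes (0.0688%, 0.0258% higher and 0.043% lower, and 9.58% at an unadjusted p under 0.05), none of them among the 4.

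Mif encodes macrophage migration inhibitory factor, a small cytokine that liver cells also make. It read 11.88, 11.85, 12.15 and 12.01 at 500 mg/kg PPH, against 11.22, 11.41, 11.24, 11.47 and 11.33 in PPH vehicle livers. It read 11.77, 12.03, 11.78 and 11.90 at 500 mg/kg MCHM, against 11.93, 12.01, 11.74, 11.77 and 11.96 in MCHM vehicle livers. The PPH vehicle livers were the low group, and the other 3 groups overlapped. PPH raised Mif by 0.64 ± 0.10 log2 units (SE, 1.55-fold, adjusted p 0.00019 in limma), MCHM gave -0.01 (adjusted p 0.974), and the difference was 0.65 ± 0.14 (SE, 95% interval 0.37 to 0.93, adjusted p 0.0471). By dose of PPH the group means were 11.34 in vehicle livers, 11.81 at 1, 11.88 at 10, 11.72 at 100, 11.97 at 500 and 11.78 at 1000 mg/kg, so the level stood high from the lowest dose. Mif rose by 0.47 at 1 mg/kg (adjusted p 0.0333) and by 0.54 at 10 mg/kg (adjusted p 0.00724). Against the 1 and 10 mg/kg animals the difference between the chemicals was -0.03 (adjusted p 0.968).

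Thyn1 encodes a nuclear protein of thymocytes and other cells. It read 7.11, 7.29, 6.92 and 7.36 at 500 mg/kg PPH, against 6.77, 6.79, 6.58, 6.71 and 6.89 in PPH vehicle livers. It read 6.97, 7.06, 7.09 and 7.00 at 500 mg/kg MCHM, against 7.26, 7.14, 7.15, 7.12 and 7.35 in MCHM vehicle livers. Within each chemical the treated and vehicle groups were separate, upward for PPH and downward for MCHM. PPH raised Thyn1 by 0.42 (adjusted p 0.00509), MCHM gave -0.17 (adjusted p 0.357), and the difference was 0.60 ± 0.12 (SE, adjusted p 0.0471). Like Mif it stood high at 1 mg/kg PPH, where it rose by 0.47 (adjusted p 0.00755), and the difference was 0.16 without the vehicle animals (adjusted p 0.688).

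C5l1, for which no role is given here, read 8.99, 9.48, 9.09 and 9.40 at 500 mg/kg PPH, against 9.24, 8.74, 8.99, 8.92 and 8.77 in PPH vehicle livers. It read 8.78, 9.07, 8.95 and 8.85 at 500 mg/kg MCHM, against 9.47, 9.16, 9.43, 9.43 and 9.51 in MCHM vehicle livers. The MCHM groups did not overlap and the PPH groups did. PPH gave a change of 0.31 (adjusted p 0.211), C5l1 fell by 0.49 on the log2 scale with MCHM (adjusted p 0.0229), and the difference was 0.80 ± 0.17 (SE, adjusted p 0.0471). It was the MCHM vehicle livers that were high, with a mean of 9.40, against 8.91 to 9.14 at the 6 MCHM doses. Without the vehicle animals the difference was 0.30 (adjusted p 0.539).

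Lactb2, known in humans as a mitochondrial endoribonuclease, was the gene that was lower with PPH. It read 10.79, 10.80, 11.03 and 10.82 at 500 mg/kg PPH, against 10.91, 11.10, 11.05, 11.03 and 11.04 in PPH vehicle livers. It read 11.16, 10.87, 11.30 and 11.31 at 500 mg/kg MCHM, against 10.83, 10.93, 10.94, 10.81 and 10.82 in MCHM vehicle livers. The treated and vehicle groups overlapped with both chemicals. PPH gave a change of -0.17 (adjusted p 0.256), MCHM raised Lactb2 by 0.29 (adjusted p 0.0197) and crude MCHM did so by 0.29 (adjusted p 0.0364), and the difference was -0.46 ± 0.10 (SE, adjusted p 0.0471). Without the vehicle animals it was -0.29 (adjusted p 0.207).

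**Figure D2:**
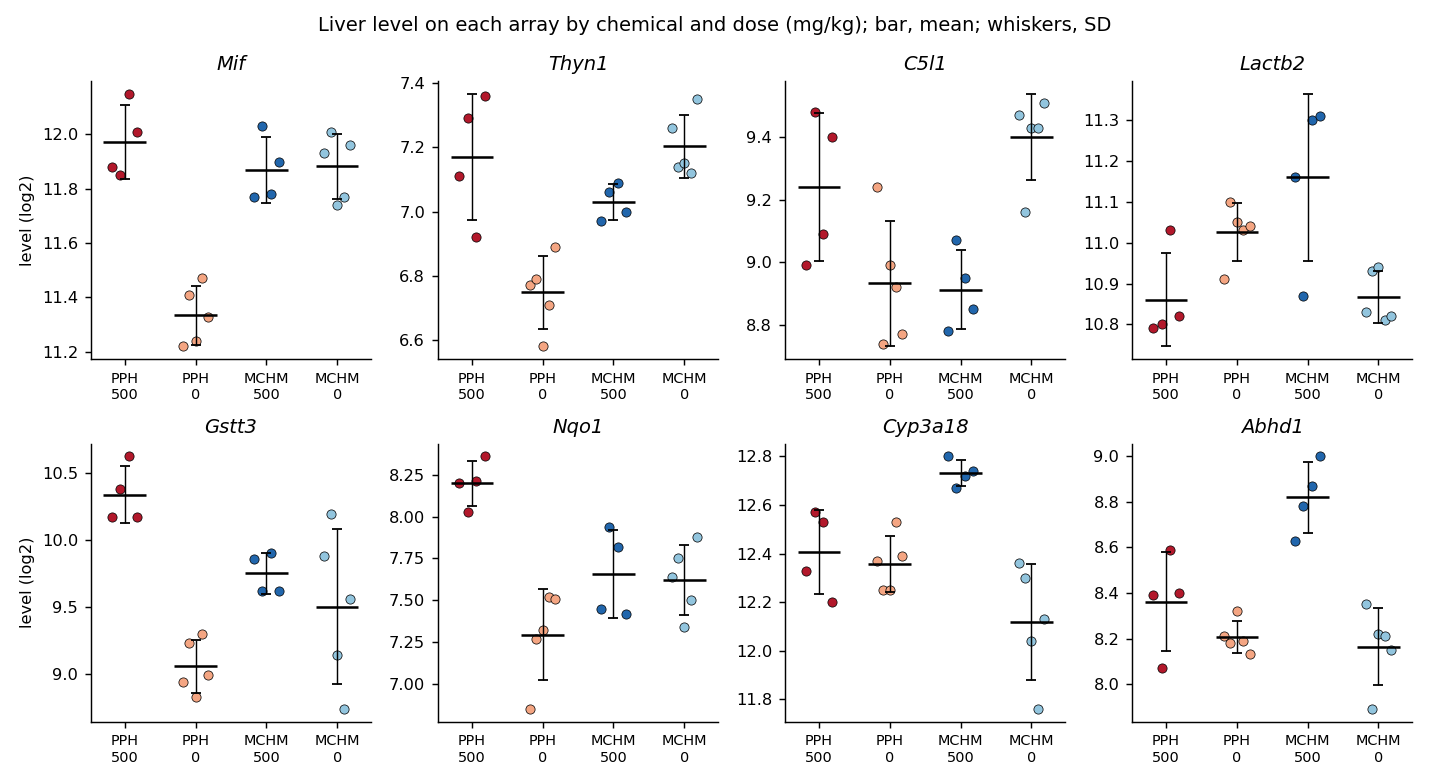
Log2 levels of 8 genes on each of the 18 arrays, with the groups in the order PPH 500, PPH 0, MCHM 500 and MCHM 0 mg/kg, the bar at the group mean and whiskers of 1 SD. Mif, Thyn1, Gstt3 and Nqo1 have their lowest means in the PPH vehicle livers, while Cyp3a18 and Abhd1 have their highest at 500 mg/kg MCHM.

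The 8 genes that passed without the vehicle animals were chosen after their values were seen. Their unadjusted p against vehicle, a comparison with the same treated livers, was at most 0.0407. All had an adjusted p of 0.0496. Ulk2, a kinase that starts autophagy, differed by 0.49 ± 0.10, Ccl5, a chemokine that draws lymphocytes, by 0.76 ± 0.16, and Gde1, a glycerophosphodiester phosphodiesterase, by 0.83 ± 0.19 (SE), so these were higher with PPH.

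Ulk2 read 8.69, 8.77, 8.57 and 8.75 at 500 mg/kg PPH, against 8.72, 8.73, 8.83, 8.58 and 8.80 in PPH vehicle livers. It read 8.27, 8.26, 8.32 and 8.36 at 500 mg/kg MCHM, against 8.62, 8.63, 8.69, 8.70 and 8.56 in MCHM vehicle livers. The 4 livers at 500 mg/kg MCHM lay below all others, and the Ulk2 change was -0.03 with PPH (adjusted p 0.893) and -0.34 with MCHM (adjusted p 0.0134). Ccl5 read 7.75, 7.56, 7.25 and 7.75 at 500 mg/kg PPH, against 7.58, 7.95, 7.81, 7.53 and 7.15 in PPH vehicle livers. It had 6.90, 7.14, 7.30 and 7.17 at 500 mg/kg MCHM, against 7.65, 7.48, 7.69, 7.89 and 7.90 in MCHM vehicle livers. The MCHM groups did not overlap, but the highest treated MCHM liver lay above the lowest liver of both PPH groups. The PPH change was -0.02 (adjusted p 0.96) and the MCHM change -0.60 (adjusted p 0.00613). Gde1 averaged 9.64 ± 0.10 at 500 mg/kg PPH and 9.39 ± 0.25 in PPH vehicle livers, against 8.92 ± 0.15 at 500 mg/kg MCHM and 9.38 ± 0.21 in MCHM vehicle livers (SD, n = 4 treated and n = 5 vehicle livers of each chemical).

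The 5 genes that were lower with PPH by this baseline belong to fatty acid oxidation, peroxisomes, cytochrome P450 and protein turnover. Eci1, an isomerase needed to burn unsaturated fatty acids in mitochondria, read 11.48, 11.24, 11.78 and 11.36 at 500 mg/kg PPH, against 11.34, 10.87, 11.18, 11.51 and 11.15 in PPH vehicle livers. It read 12.07, 12.20, 12.08 and 12.59 at 500 mg/kg MCHM, against 11.64, 11.56, 11.63, 11.55 and 11.58 in MCHM vehicle livers. The PPH groups overlapped and the MCHM groups did not. PPH gave 0.25 (adjusted p 0.39), while Eci1 rose by 0.64 with MCHM (adjusted p 0.00427). The difference was -0.79 ± 0.17 (SE) without the vehicle animals and -0.39 ± 0.19 with them (adjusted p 0.486). Pex14, part of the docking complex through which peroxisomes import proteins, read 8.19, 8.14, 8.17 and 8.09 at 500 mg/kg PPH, against 8.13, 8.02, 8.08, 8.10 and 8.30 in PPH vehicle livers. It read 8.55, 8.62, 8.64 and 8.59 at 500 mg/kg MCHM, against 8.13, 8.18, 8.24, 8.26 and 8.29 in MCHM vehicle livers, so that the treated MCHM livers lay above all others. PPH gave 0.02 (adjusted p 0.923) and MCHM raised Pex14 by 0.38 (adjusted p 0.00118), with a difference of -0.41 ± 0.09 (SE) without the vehicle animals and -0.36 ± 0.10 with them (adjusted p 0.154).

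Fbxo6, which picks glycoproteins for degradation, Cyp2c22, a cytochrome P450, and Cyp3a18 were the other genes that were lower with PPH. Fbxo6 differed by -0.43 ± 0.09 (SE) with a PPH change of 0.13 (adjusted p 0.41) and a rise of 0.38 with MCHM (adjusted p 0.00118). Cyp2c22 differed by -0.75 ± 0.17 (SE), with a change of 0.00 with PPH (adjusted p 0.996) and of 0.45 with MCHM (adjusted p 0.0599). The next genes in the order of p were Serpina6, the plasma carrier of corticosteroids, at 0.57 (adjusted p 0.0522) and Abhd1 at -0.50 (adjusted p 0.0577).

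**Figure D3:**
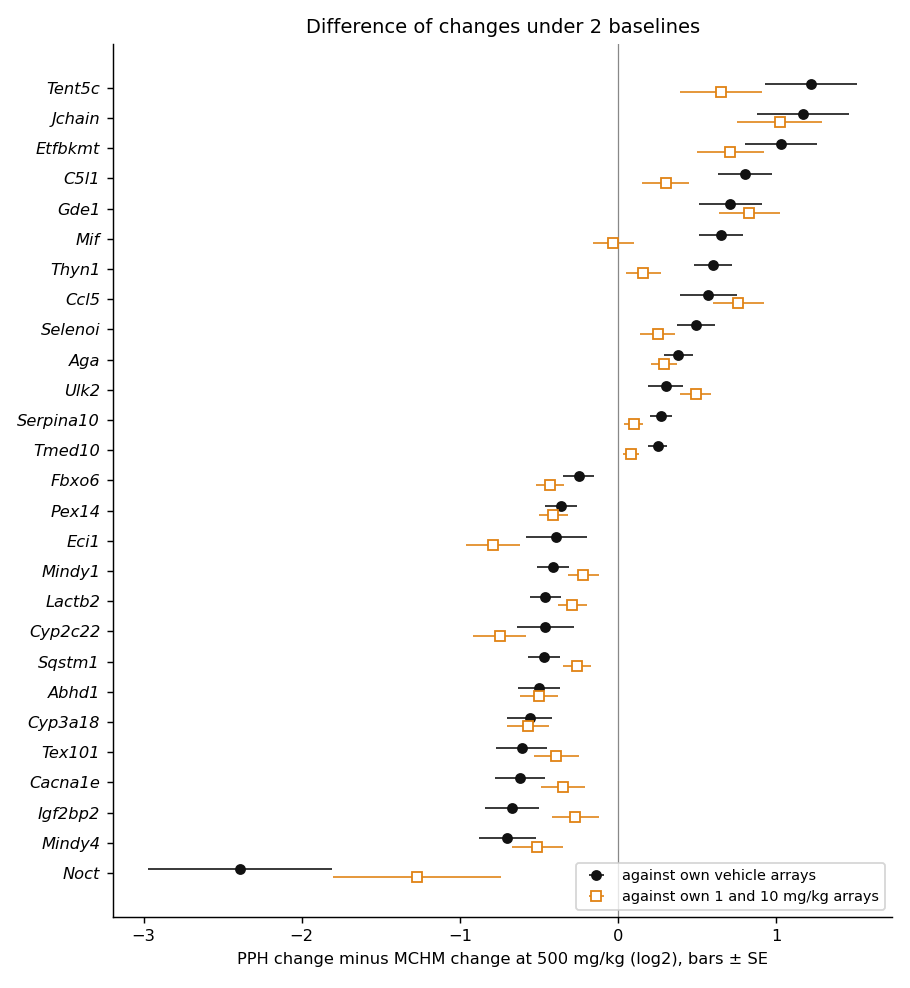
PPH minus MCHM difference at 500 mg/kg in log2 units (x axis) for 27 genes, with circles for the change against own vehicle livers, squares for the change against own 1 and 10 mg/kg livers and bars of 1 SE. The squares of Mif, Thyn1 and C5l1 lie nearer 0 than their circles, and those of Cyp3a18, Abhd1 and Pex14 lie beside them.

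Among the genes best known from chemical exposure, PPH raised glutathione and antioxidant enzymes against its vehicle. Of 26 Nrf2 targets tested, 8 rose with PPH and 2 with MCHM (1.08% and 0.576% of all genes rose). Between the chemicals 0 differed in limma, where 6 had an unadjusted p under 0.05 (9.91% of all genes did). The median difference of the list was 0.14, against 0.03 over all genes, and 0.02 without the vehicle animals, against 0.01 over all genes. The 8 were Nqo1, Gsr, Gsta3, Akr7a3, Akr7a2, Pgd, Tkt and Me1, and the 2 were Srxn1, which repairs oxidized peroxiredoxins, and Sqstm1, a carrier of cargo to autophagy. Of 34 conjugation enzymes, 5 rose with PPH (Gsta3, Gstt1, Gstt3, Mgst2 and Sult1a1) and 1 with MCHM (Gstk1, by 0.34, adjusted p 0.000231). Without the vehicle animals 0 members of either list rose with PPH (in the Nrf2 list 7 had an unadjusted p under 0.05 in limma, against 4.9% of all genes). With the PPH arrays fitted alone 1 Nrf2 target rose in place of 8 and 1 conjugation enzyme in place of 5. The 8 Nrf2 targets became 2 without animal PPH-231 and 4 without PPH-232 of the same dose or the vehicle animals PPH-202 or PPH-206. The 5 conjugation enzymes became 3 without PPH-231, PPH-232 or PPH-202, and the 2 Nrf2 targets of MCHM became 1 without MCHM-40 or MCHM-43 of 500 mg/kg or the vehicle animals MCHM-3, MCHM-4 or MCHM-8.

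Gstt3, a theta class glutathione transferase, read 10.17, 10.38, 10.62 and 10.17 at 500 mg/kg PPH, against 8.94, 9.23, 8.83, 9.30 and 8.99 in PPH vehicle livers. It read 9.86, 9.62, 9.90 and 9.62 at 500 mg/kg MCHM, against 9.88, 10.19, 9.14, 8.74 and 9.56 in MCHM vehicle livers. The PPH groups were far apart, and the MCHM vehicle livers were the most spread group. PPH raised it by 1.28 (adjusted p 0.00048), MCHM gave 0.25 (adjusted p 0.664), and the difference of 1.03 ± 0.30 (SE) did not pass (adjusted p 0.166). Gstt3 had group means of 9.06 in PPH vehicle livers, 9.90 at 1, 10.10 at 10, 9.77 at 100, 10.34 at 500 and 10.94 at 1000 mg/kg. The means stepped up at the lowest dose, and those at 500 and 1000 mg/kg were the highest. Without the vehicle animals its difference from MCHM was 0.17 (adjusted p 0.908).

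Nqo1, a quinone reductase, read 8.20, 8.03, 8.21 and 8.36 at 500 mg/kg PPH, against 6.85, 7.27, 7.32, 7.52 and 7.51 in PPH vehicle livers. It read 7.45, 7.94, 7.82 and 7.42 at 500 mg/kg MCHM, against 7.64, 7.75, 7.34, 7.50 and 7.88 in MCHM vehicle livers. All livers at 500 mg/kg PPH lay above every liver of the other groups. PPH raised Nqo1 by 0.91 (adjusted p 0.00162), MCHM gave 0.03 (adjusted p 0.963), and the difference of 0.87 ± 0.23 (SE) did not pass (adjusted p 0.116), nor did that of 0.43 without the vehicle animals (adjusted p 0.509). By dose the PPH means were 7.29, 7.82, 7.87, 7.83, 8.20 and 8.62 at 0, 1, 10, 100, 500 and 1000 mg/kg, while the MCHM means of all 7 groups lay between 7.51 and 7.75. At 1000 mg/kg PPH, a dose with no MCHM counterpart, Nqo1 was up by 1.33 (adjusted p 4.41e-08).

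Gsta3, an alpha class glutathione transferase, did not set the chemicals apart. It read 8.40, 7.92, 8.45 and 8.66 at 500 mg/kg PPH, against 5.50, 6.37, 7.12, 7.35 and 7.53 in PPH vehicle livers. It read 8.68, 8.23, 8.47 and 8.48 at 500 mg/kg MCHM, against 8.01, 8.00, 6.67, 7.59 and 7.21 in MCHM vehicle livers. The treated livers lay above the vehicle livers with both chemicals. The PPH rise was 1.58 (3.00-fold, adjusted p 0.0094), the MCHM change 0.97 (adjusted p 0.161), and their difference 0.62 with a 95% interval of -0.38 to 1.61 (adjusted p 0.715). Me1, which makes NADPH for fat synthesis and glutathione, rose by 0.79 with PPH (adjusted p 0.00434), where MCHM gave 0.41 (adjusted p 0.183). Gsr, which regenerates glutathione, rose by 0.56 (adjusted p 0.0188), where MCHM gave 0.21 (adjusted p 0.536).

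**Figure D4:**
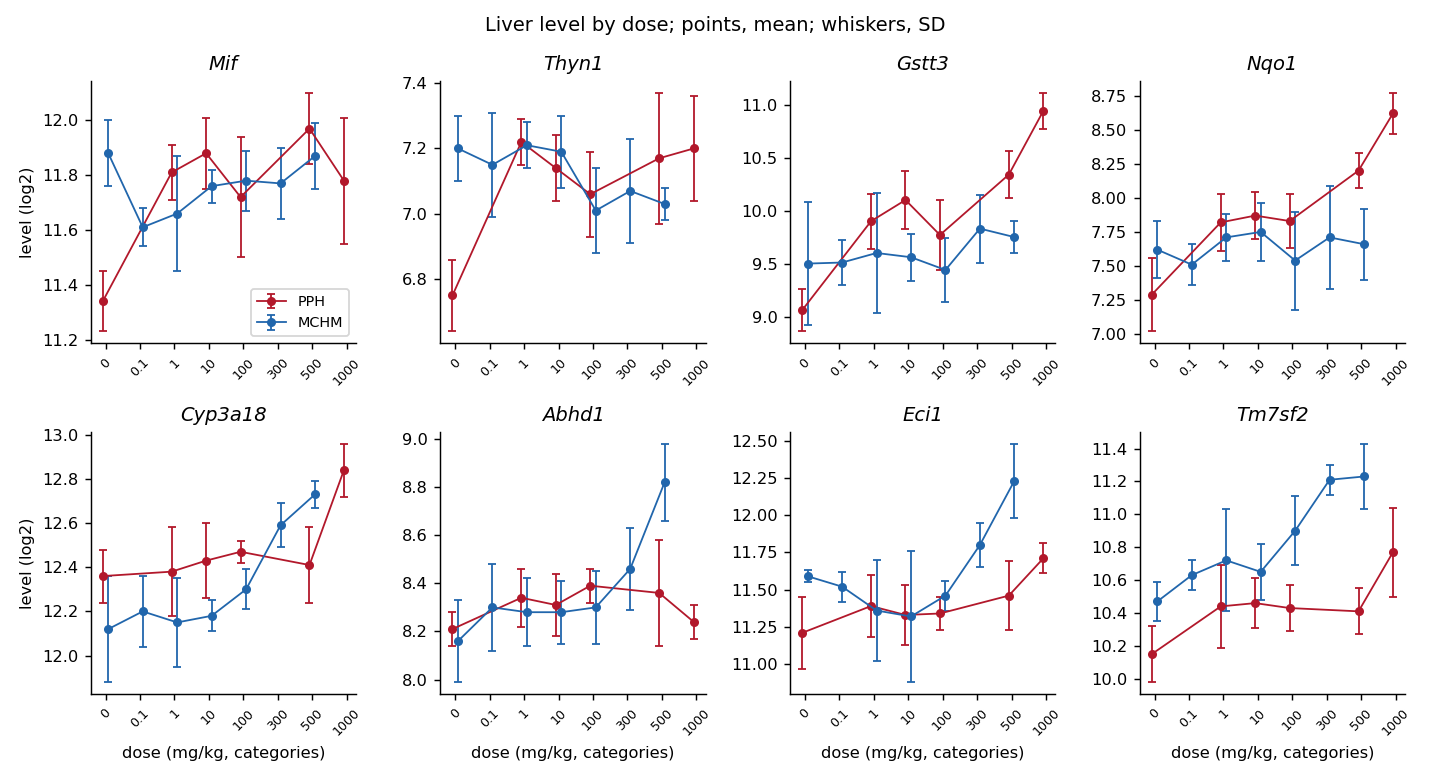
Group mean log2 level by dose in mg/kg, drawn as categories, of 8 genes with PPH in red and MCHM in blue, with bars of 1 SD. Mif and Thyn1 step up between PPH vehicle and 1 mg/kg and stay near that level, Gstt3 and Nqo1 step up there and again at 500 and 1000 mg/kg, and the means of Tm7sf2 and Cyp3a18 climb with MCHM from 100 or 300 mg/kg.

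Promoter sequences are shown for Mif, which passed for the difference, Gsta3, an Nrf2 target that PPH raised, and Abhd1, which MCHM raised, as examples of windows that hold the core of the antioxidant response element, the sequence through which Nrf2 acts. They are the RefSeq GRCr8 windows from 250 bases before to 50 bases after the gene start, 5′ to 3′ on the gene's strand. Capitals mark TGACNNNGC or, on the other strand, GCNNNGTCA, and the 3 genes were chosen after their values were seen. A match was found in 12.1% of 33469 promoters of this length (4038), so it is a description and not a site. It was counted in 35 genes, those named by rule that had a window and Gsta3, which was added from outside the rule. Of these 5 held it (14.3%), near that share, and besides the 3 shown they were Apon and Tex101. Other described genes, such as Me1 and Gsr, are not among the 35.
Mif, chr20:12790107-12790406 on the plus strand: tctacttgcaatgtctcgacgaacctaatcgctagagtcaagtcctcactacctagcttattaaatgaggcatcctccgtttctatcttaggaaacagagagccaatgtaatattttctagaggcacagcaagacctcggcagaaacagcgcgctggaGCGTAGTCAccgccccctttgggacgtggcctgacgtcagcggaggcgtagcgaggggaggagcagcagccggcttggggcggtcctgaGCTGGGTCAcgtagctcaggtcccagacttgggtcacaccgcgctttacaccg
Gsta3, chr9:31154739-31155038 on the plus strand: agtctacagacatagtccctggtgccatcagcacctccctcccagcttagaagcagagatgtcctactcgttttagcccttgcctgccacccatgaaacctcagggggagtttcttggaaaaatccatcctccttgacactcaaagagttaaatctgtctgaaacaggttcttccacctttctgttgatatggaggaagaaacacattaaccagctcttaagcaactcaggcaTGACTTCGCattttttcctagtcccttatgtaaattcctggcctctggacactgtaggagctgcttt
Abhd1, chr6:31147415-31147714 on the minus strand: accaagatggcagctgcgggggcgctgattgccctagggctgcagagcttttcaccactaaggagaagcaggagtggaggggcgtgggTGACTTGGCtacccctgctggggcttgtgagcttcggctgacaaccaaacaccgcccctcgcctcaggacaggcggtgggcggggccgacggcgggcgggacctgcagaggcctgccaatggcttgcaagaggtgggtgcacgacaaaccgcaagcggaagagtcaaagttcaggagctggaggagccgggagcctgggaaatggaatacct
Mif has 2 matches, which begin 92 and 3 bases upstream of the gene start, Gsta3 has 1 at 17 bases and Abhd1 has 1 at 162 bases upstream. Gsta3 has a further RefSeq window with no match. The windows of Gstt3, Nqo1, Thyn1 and Cyp3a18 hold none of these letters.

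MCHM raised cytochrome P450, esterase and fatty acid oxidation genes that did not pass with PPH at this dose. Of 19 CAR and PXR targets, 0 rose with PPH in limma, where 3 had an unadjusted p under 0.05 (13.6% of all genes did). MCHM raised 3 of them, Cyp3a18, Cyp3a23-3a1 and the carboxylesterase Ces2c (0.576% of all genes rose). The list's median difference was -0.07, and -0.04 without the vehicle animals. At 1000 mg/kg PPH against vehicle 4 members rose and 2 fell (2.04% and 0.955% of all genes did). Cyp3a18, a male-typical member of the Cyp3a family, read 12.33, 12.57, 12.53 and 12.20 at 500 mg/kg PPH, against 12.37, 12.25, 12.25, 12.53 and 12.39 in PPH vehicle livers. It read 12.80, 12.67, 12.72 and 12.74 at 500 mg/kg MCHM, against 12.36, 12.30, 12.04, 11.76 and 12.13 in MCHM vehicle livers. The 4 livers at 500 mg/kg MCHM lay above all others. PPH gave 0.05 (adjusted p 0.878), MCHM raised Cyp3a18 by 0.61 (1.53-fold, adjusted p 0.000172), and the difference was -0.56 ± 0.14 (SE, adjusted p 0.104) against vehicle and -0.57 ± 0.13 without the vehicle animals (adjusted p 0.0496). With 1000 mg/kg PPH it rose by 0.48 (adjusted p 0.00128).

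Abhd1, an alpha/beta hydrolase, read 8.39, 8.07, 8.59 and 8.40 at 500 mg/kg PPH, against 8.21, 8.18, 8.32, 8.19 and 8.13 in PPH vehicle livers. It read 8.63, 8.78, 8.87 and 9.0 at 500 mg/kg MCHM, against 8.35, 7.89, 8.22, 8.21 and 8.15 in MCHM vehicle livers. PPH gave 0.16 (adjusted p 0.452) and its dose of 1000 mg/kg gave 0.03 (adjusted p 0.922), while MCHM raised Abhd1 by 0.65 (adjusted p 6.28e-06) and crude MCHM raised it by 0.76 (adjusted p 2.91e-07). The vehicle groups of Abhd1 differed by 0.04 (adjusted p 0.788). The difference between the chemicals was -0.50 ± 0.13 (SE, adjusted p 0.104), and its other probe set gave -0.28.

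Of 38 PPAR-alpha targets and fatty acid oxidation genes, 0 rose with PPH in limma, where 1 had an unadjusted p under 0.05 (13.6% of all genes did). With MCHM 3 rose (Cyp4a1, Ehhadh and Eci1), where 0.576% of all genes did. The median difference was 0.01, and 0.04 without the vehicle animals. At 1000 mg/kg PPH against vehicle 4 members rose and 0 fell (2.04% of all genes rose). Cyp4a1, which hydroxylates fatty acids and is the standard PPAR-alpha marker in rat liver, read 11.44, 11.31, 11.23 and 11.41 at 500 mg/kg PPH, against 11.28, 10.70, 11.50, 11.59 and 11.42 in PPH vehicle livers. It read 11.66, 11.40, 11.66 and 12.01 at 500 mg/kg MCHM, against 11.35, 11.07, 10.85, 10.90 and 10.82 in MCHM vehicle livers. The PPH change was 0.05 (adjusted p 0.929), the MCHM rise 0.69 (adjusted p 0.00641), and the difference -0.64 ± 0.21 (SE, adjusted p 0.225). Ehhadh, a peroxisomal enzyme of the same pathway, had a PPH change of 0.15 (adjusted p 0.676) and a rise of 0.64 with MCHM (adjusted p 0.00427), and its difference was -0.50 ± 0.19 (SE, adjusted p 0.34). Without animal MCHM-42 of 500 mg/kg 1 member of the list rose and 1 fell.

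Cholesterol synthesis genes lay mostly above 0 with both chemicals. The list's 22 members had a median change of 0.34 with PPH, where 22 of 22 were above 0 and 1 rose (Pmvk, a kinase of the mevalonate pathway, by 0.68, adjusted p 0.00706). They had a median of 0.28 with MCHM, where 21 were above 0 and 2 rose (Tm7sf2 and Ebp). Over all genes 60.1% of PPH changes and 51.7% of MCHM changes were above 0, and 1.08% and 0.576% of genes rose. The list's median difference was 0.09, and -0.05 with 15 of 22 below 0 without the vehicle animals. Against vehicle its median PPH change was already 0.22 at 1 and 0.19 at 10 mg/kg. Against the 1 and 10 mg/kg animals the median was 0.17 at 500 mg/kg PPH, where 0 rose in limma (0.0% of all genes did). With MCHM it was 0.20, where 4 rose (1.31% of all genes did). At 1000 mg/kg PPH 17 of the 22 rose, with a median change of 0.65 (2.04% of all genes rose). Tm7sf2, a sterol reductase, read 10.32, 10.35, 10.63 and 10.35 at 500 mg/kg PPH, against 10.29, 10.11, 10.36, 9.94 and 10.06 in PPH vehicle livers. It read 11.13, 11.46, 11.01 and 11.31 at 500 mg/kg MCHM, against 10.42, 10.61, 10.33, 10.58 and 10.44 in MCHM vehicle livers. The MCHM groups were separate and the PPH groups overlapped. The difference for Tm7sf2 was -0.49 ± 0.16 (SE, adjusted p 0.247), and -0.58 without the vehicle animals (adjusted p 0.0876).

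The 9 genes that passed for both chemicals had differences between -0.05 and 0.11 log2 units. The 7 that rose were Bphl, a hydrolase, Cryl1, a sugar acid dehydrogenase, Glrx5, of iron-sulfur cluster assembly, Mecr, of mitochondrial fatty acid synthesis, Orm1, an acute phase plasma protein, Tkfc, a kinase of fructose metabolism, and Uros, of heme synthesis. Cpb2, a plasma carboxypeptidase, and Slc17a2, a phosphate transporter family member, fell. Orm1 read 12.65 or more at 500 mg/kg PPH, against 12.11, 11.89, 12.44, 12.36 and 12.08 in PPH vehicle livers. It read 12.50, 12.86, 12.80 and 12.57 at 500 mg/kg MCHM, against 12.18, 11.77, 11.59, 12.39 and 12.23 in MCHM vehicle livers. Orm1 thus rose by 0.62 with PPH (adjusted p 0.0303) and by 0.65 with MCHM (adjusted p 0.0236), with a 95% interval of the difference of -0.48 to 0.42. For Cpb2 the interval was narrower, -0.04 to 0.17, with changes of -0.14 with PPH (adjusted p 0.046) and -0.20 with MCHM (adjusted p 0.00144). With 1 array left out its PPH change no longer passed in any of 9 limma fits, at -0.16 to -0.12. Orm1 passed in 3 of 9 such fits with PPH and in 5 of 9 with MCHM. Over the 9 genes the PPH change passed in 0 (Cpb2) to 9 fits (Tkfc), and the MCHM change in 2 (Uros) to 9 (Cpb2). Against the 1 and 10 mg/kg animals 0 genes passed at 500 mg/kg PPH, these included. The 9 were chosen for passing with both chemicals, and a shared direction favours small differences.

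The remaining genes at the top of the order by p did not pass. Of the 20 genes with the smallest p, 10 in each direction, 18 had opposite PPH and MCHM changes. Choosing genes by the difference of changes favours opposite signs, so this count describes the choice and not the chemicals. In all 20 the vehicle groups differed in the direction opposite to the difference of changes, which the vehicle difference enters with its sign turned, and 9 had a vehicle difference larger than the difference between the treated groups. Etfbkmt, a methyltransferase that acts on a mitochondrial electron carrier, had a difference of 1.03 ± 0.23 (SE, adjusted p 0.0546), and its other probe set gave 0.44. It read 6.38, 6.54, 6.37 and 6.33 at 500 mg/kg PPH, against 5.55, 5.66, 5.88, 6.61 and 6.23 in PPH vehicle livers. It read 5.65, 5.95, 5.68 and 5.78 at 500 mg/kg MCHM, against 6.88, 6.09, 6.36, 6.28 and 6.27 in MCHM vehicle livers, and MCHM lowered it with a change of -0.61 (adjusted p 0.0379). Jchain, which joins antibody units in plasma cells, differed by 1.17 ± 0.29 (SE, adjusted p 0.104), but its other probe set gave 0.00.

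Further genes higher with PPH were Tent5c, a poly(A) polymerase (1.22), Aga, a lysosomal enzyme (0.38), Selenoi, of phospholipid synthesis (0.49), Serpina10, a plasma protease inhibitor (0.27), and Tmed10, of vesicle traffic (0.25), all with adjusted p of 0.0919 to 0.104. On the lower side were Sqstm1 at -0.47 ± 0.10 (SE, adjusted p 0.0546), Noct at -2.39, Igf2bp2, an RNA-binding protein, at -0.67, Mindy4 and Mindy1, which cut ubiquitin chains, at -0.70 and -0.41, Cacna1e, a calcium channel, at -0.62, and Tex101 at -0.61. The 4 probe sets of Sqstm1 gave -0.51, -0.54, -0.47 and -0.03, and the other probe set of Igf2bp2 gave -0.12. Those of Sqstm1 at -0.51 and -0.54 were dim (mean levels 5.06 and 4.81). Their PPH changes were -0.40 and -0.47, and their MCHM changes 0.11 and 0.06. The one used (mean level 11.61) had changes of -0.07 with PPH and 0.39 with MCHM. The one at -0.03 (mean level 9.56) had 0.19 and 0.21. Cacna1e fell by 0.57 on the log2 scale with PPH (adjusted p 0.00438), and its values of 4.04 to 5.07 sit near the filter level of 4.69.

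Noct, Tat and Elovl6 had large differences with wide spreads and did not pass. Noct, a rhythmic regulator of nutrient use, read 4.42, 4.86, 5.57 and 4.65 at 500 mg/kg PPH, against 5.10, 6.15, 5.04, 5.26 and 6.19 in PPH vehicle livers. It read 6.12, 5.49, 6.23 and 6.08 at 500 mg/kg MCHM, against 4.31, 4.79, 4.06, 3.47 and 4.69 in MCHM vehicle livers. PPH gave -0.67 (adjusted p 0.486) and MCHM raised Noct by 1.72 (adjusted p 0.0205). The MCHM vehicle values of Noct, 3.47 to 4.79, sit around or below the filter level of 4.69, so the size of this rise is uncertain. Tat, which breaks down tyrosine and answers to glucocorticoids, differed by -1.90 ± 0.51 (SE, adjusted p 0.134), and by -0.79 without the vehicle animals (adjusted p 0.613). The elongase Elovl6 differed by -1.46 ± 0.47 (SE, adjusted p 0.22) and by -1.35 without them (adjusted p 0.207). The 15 glucocorticoid targets and metallothioneins had a median difference of -0.02 with 6 above 0, and the 15 genes of gluconeogenesis and fasting had one of -0.07 with 5 above 0. In limma 0 members of either list passed, and 5 and 4 had an unadjusted p under 0.05 (9.91% of all genes did). Their medians were -0.03 and 0.09 without the vehicle animals.

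The 25 genes of the ER stress and amino acid response went both ways. Their median difference was 0.02 with 13 above 0, and -0.04 without the vehicle animals. In limma 0 passed, and 3 had an unadjusted p under 0.05 (9.91% of all genes did). Mthfd2, a mitochondrial folate enzyme, differed by -1.14 ± 0.33 (SE, adjusted p 0.155), and Trib3, a stress-induced pseudokinase, by -1.73 ± 0.70 (SE, adjusted p 0.387). The clock output gene Dbp read 5.24, 4.50, 4.71 and 4.80 at 500 mg/kg PPH, against 5.73, 4.42, 6.73, 5.38 and 8.17 in PPH vehicle livers. It read 5.16, 5.09, 5.28 and 4.88 at 500 mg/kg MCHM, against 4.96, 4.29, 5.39, 4.98 and 4.60 in MCHM vehicle livers. The PPH vehicle livers were the most spread group. The difference of Dbp was -1.53 ± 0.71 (SE, adjusted p 0.466) against vehicle and 1.10 without the vehicle animals (adjusted p 0.608). Of 16 clock genes 0 passed in limma, and 2 had an unadjusted p under 0.05, against 9.91% of all genes.

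**Figure D5:**
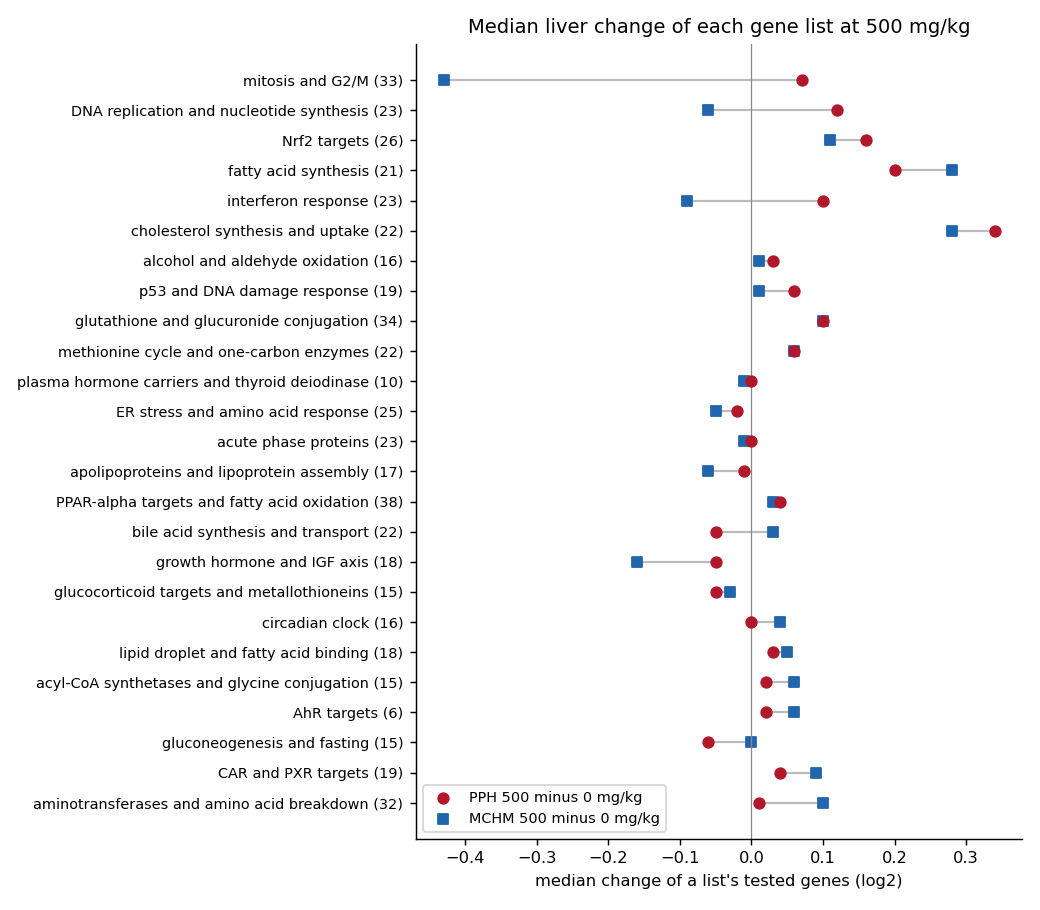
Median log2 change at 500 mg/kg of the tested genes in 25 pathway lists (rows), with circles for PPH and squares for MCHM, each against its own vehicle livers. The mitosis list has the widest gap (0.07 with PPH and -0.43 with MCHM), while both symbols of the cholesterol list lie near 0.3.

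Cell division genes had the widest gap between the list medians, and 1 liver weighed heavily in it. The 33 tested mitosis genes had a median difference of 0.50 with 33 of 33 above 0, from a median of 0.07 with PPH and -0.43 with MCHM. Over all genes 6637 of 11624 differences were above 0. In limma 0 of the 33 passed for the difference, and 10 had an unadjusted p under 0.05 (9.91% of all genes did). Cdk1, the kinase that starts mitosis, read 5.37, 5.63, 5.70 and 7.71 at 500 mg/kg PPH, against 5.97, 6.42, 5.86, 6.27 and 6.00 in PPH vehicle livers. It read 5.88, 5.11, 4.51 and 5.37 at 500 mg/kg MCHM, against 6.24, 6.20, 5.57, 6.11 and 6.83 in MCHM vehicle livers. A single treated PPH liver thus stood above every other. The proliferation marker Mki67 read 4.46, 4.27, 3.92 and 5.90 at 500 mg/kg PPH, against 4.17, 4.88, 4.31, 4.88 and 4.65 in PPH vehicle livers. The high value of both is that of animal PPH-231. Without it the list's median difference was 0.12 with 22 of 33 above 0, and the median PPH change was -0.24, while the median difference was 0.80 without PPH-232. Without the vehicle animals the median difference was 0.20 with 28 above 0. At 1000 mg/kg PPH against vehicle the list's median change was -0.61, with 32 of 33 below 0 and 7 fallen (0.955% of all genes fell). With 500 mg/kg crude MCHM against its own vehicle the median change was -0.03. The list's PPH minus MCHM difference at the other matched doses was not described.

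The same liver was high in Lcn2, an acute phase protein that injured liver cells and neutrophils release. Lcn2 read 7.21, 6.18, 5.71 and 8.88 at 500 mg/kg PPH, against 5.23, 4.99, 5.66, 5.58 and 5.72 in PPH vehicle livers. It read 4.62, 5.71, 4.83 and 4.83 at 500 mg/kg MCHM, against 5.21, 5.07, 5.59, 4.88 and 5.58 in MCHM vehicle livers. PPH raised Lcn2 by 1.56 (adjusted p 0.0368), and the difference of 1.83 ± 0.59 (SE) did not pass (adjusted p 0.22). Without PPH-231 the PPH change of Lcn2 was 0.93 (adjusted p 0.386) and the difference 1.2. Of 23 acute phase genes 2 rose with PPH (Orm1 and Lcn2) and 1 with MCHM (Orm1), where 1.08% and 0.576% of all genes rose. The list's median difference was 0.02.

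Markers of other cell types of the liver did not pass for the difference against vehicle in limma, while 8 lists of them had a median difference between 0.02 (fat cells) and 0.62 (the 2 neutrophil markers of 9 that passed the filter on low values), against 0.03 over all genes. In whole tissue, fewer cells of a type and less RNA per cell cannot be told apart. The 12 macrophage markers had a median difference of 0.21 with 11 above 0 (6637 of all 11624 genes were), and of 0.13 without PPH-230. Without the vehicle animals it was 0.35, where 8 of the 12 markers had an unadjusted p under 0.05 (9.58% of all genes did). Their summed level, on the linear scale, was 7370 to 8360 at 500 mg/kg PPH and 7270 to 8450 in PPH vehicle livers, against 5680 to 7600 at 500 mg/kg MCHM and 6900 to 7750 in MCHM vehicle livers.

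Several of these medians moved with the baseline. The 15 fibroblast and stellate cell markers had a median difference of 0.29, of 0.16 without PPH-231, and of 0.12 without the vehicle animals. The 8 bile duct markers had 0.33 and, without the vehicle animals, 0.07, and without PPH-231 or MCHM-7 0.22. The 12 lymphocyte markers had 0.08 and, without the vehicle animals, 0.24, where Ccl5 passed. Endothelial markers (12) had 0.07 and 0.03, red blood cell markers (6) 0.16 and 0.03, and fat cell markers (7) 0.02 and 0.01, with and without the vehicle animals. Fibroblast sums were 4230 to 5320 at 500 mg/kg PPH and 4310 to 5530 in PPH vehicle livers, against 3160 to 3770 at 500 mg/kg MCHM and 3380 to 4540 in MCHM vehicle livers.

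Among the markers of these cell types 0 passed for PPH in limma, where 0 to 3 of each list had an unadjusted p under 0.05 (13.6% of all genes did). With MCHM against its vehicle 5 fell (0.576% of all genes did). They were Clec4a3, a receptor of myeloid cells, at -0.61 (adjusted p 0.0129), the lymphocyte markers Jchain at -0.87 (adjusted p 0.0197) and Ccl5 at -0.60 (adjusted p 0.00613), the endothelial Cav2, a caveolin, at -0.85 (adjusted p 0.00118), and the red blood cell gene Ahsp, which stabilizes alpha globin, at -0.59 (adjusted p 0.0499). The other, dimmer probe set of Jchain (mean level 4.62) gave 0.10 with MCHM. Hepatocyte markers had a median difference of 0.05 over 13 genes and periportal ones of -0.02 over 12. Pericentral markers had a median of -0.30 over 8 genes with 6 below 0, but of 0.02 with 5 above 0 without the vehicle animals. The part of cell makeup in the gene differences was not tested.

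At the lower matched doses 1 gene separated the chemicals. Of the 4 doses that PPH and MCHM shared, limma called 0 genes for the difference at 1 mg/kg (855 at an unadjusted p under 0.05, 7.36%, lowest adjusted p 0.0563) and 0 at 100 mg/kg (993, 8.54%, lowest adjusted p 0.354). At 10 mg/kg 1 gene passed (0.0086%), Tubb2a, a tubulin, at 1.18 ± 0.22 (SE, adjusted p 0.0138), and 999 had an unadjusted p under 0.05. With p-values adjusted over the genes of all 4 doses together, 0 passed at any dose, 500 mg/kg included, with the unadjusted counts as given. Each chemical against its vehicle changed few genes at these doses. PPH changed 8 at 1 mg/kg (0.0688%), 5 at 10 mg/kg (0.043%) and 0 at 100 mg/kg (1347 at an unadjusted p under 0.05), and MCHM 0 at 1, 10 and 100 mg/kg (664, 733 and 403). At 300 mg/kg MCHM, where PPH was not given, 4 rose (0.0344%), among them Tm7sf2 by 0.73 (adjusted p 0.000364) and Cyp3a18 by 0.48 (adjusted p 0.0379).

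Against crude MCHM at 500 mg/kg, whose arrays matched the PPH arrays in the beta-actin difference (-1.26 to -1.14), limma called 0 genes (879 at an unadjusted p under 0.05, 7.56%, lowest adjusted p 0.09). Crude MCHM changed 1.14% of genes against its vehicle, among them Cyp3a18 by 0.55 (adjusted p 0.00164), Cyp4a1 by 0.79 (adjusted p 0.00192), Eci1 by 0.87 (adjusted p 0.000133) and Ehhadh by 0.74 (adjusted p 0.00115). In the same order the PPH changes were 0.05, 0.05, 0.25 and 0.15. In the kidneys of the same study 0 of 11501 genes passed for the PPH minus MCHM difference at 500 mg/kg (762 at an unadjusted p under 0.05, 6.63%, lowest adjusted p 0.0546). Mif differed there by 0.20, Nqo1 by 0.59 and Gstt3 by 0.35, and whether liver and kidney differ was not tested.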

How the data were processed

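Liver and kidney RNA of rats was measured on Affymetrix Rat 230 2.0 arrays. The deposited values are log2 intensities made with RMA, per the submitters' processing notes. The version, and whether all arrays were normalized together, are not given in the sources used here, so the values were used as deposited.

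Of 31099 probe sets, 20832 have 1 gene symbol, 436 have several and 9831 are unnamed here. Each of 14218 genes was read from its brightest probe set, by the mean of the liver arrays. Genes above 4.69 log2 units (the 40th percentile) on at least 3 liver arrays were tested. limma 3.58.1 in R 4.3.3 (R package data.table, version 1.17.8) fitted a mean per group over 81 liver arrays, with two-sided tests and Benjamini-Hochberg adjustment. In kidney 69 of 70 arrays were used, because the values of 1 array did not stand beside their own probe sets. The number of arrays limits the precision. The code was checked on simulated data. Tables and figures were made with Python 3.11.15, pandas 2.3.3, numpy 2.4.6 and matplotlib 3.10.9. Promoters are from RefSeq GRCr8.

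Members and lists were chosen with earlier results of these data known. Named by rule were the genes that passed, the 10 smallest p in each direction and the smallest p of each pathway list. Gsta3, Me1, Gsr, Orm1, Cdk1, Mki67 and other genes outside the rule were chosen after their values were seen. Alternatives were further quantile normalization, averaging a gene's probe sets, no filter, array weights, smaller fits, other baselines, the beta-actin difference as a covariate, adjustment over 4 doses and each array left out.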

Additional observations from a re-analysis of the deposited data

Results flagged for a closer look

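In groups of 4 or 5 livers, 160 tests of the named genes asked whether the highest or lowest liver lay far from the rest of its group relative to the group's range, and 9 did. Chance gives about 1 in 20 such groups.

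At 500 mg/kg PPH, animal PPH-232 was the highest for Lactb2 at 11.03 log2 units (nearest other liver 10.82) and for Tm7sf2 at 10.63 (10.35), and it was the lowest for Irf1, an interferon-induced transcription factor, at 7.39 (7.69). Animal PPH-230 was the lowest for Igf2bp2 at 5.24 (5.66) and for Tex101 at 4.56 (4.92). Animal PPH-231, the liver with high mitosis genes, was the highest for Ube2t, a ubiquitin-conjugating enzyme of DNA repair, at 5.23 (4.45). Among PPH vehicle livers animal PPH-203 was the lowest for Elovl6 at 6.79 (7.88). At 500 mg/kg MCHM animal MCHM-41 was the highest for Irf1 at 7.79 (7.39), and among MCHM vehicle livers animal MCHM-6 was the lowest for C5l1 at 9.16 (9.43).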

How the results depend on the processing

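The count of 4 genes for the PPH minus MCHM difference at 500 mg/kg was 0 without the filter, with only the 4 groups in the fit, with own 0, 1 and 10 mg/kg animals as baseline (1170 at an unadjusted p under 0.05 in limma) and with adjustment over 4 doses, which also gave 0 in place of 1 at 10 mg/kg. It was 23 with array weights, 8 with the 1 and 10 mg/kg baseline added after the data had been seen, and 2031 with treated livers compared directly, which leaves the gap between the array sets in. Leaving out 1 array gave 0 to 14: 14 without MCHM-41, 9 without PPH-232 and 2 without PPH-229 (500 mg/kg), 1 without PPH-208 (vehicle), and 0 without MCHM-40, MCHM-42, MCHM-43, PPH-230 or PPH-231 (500 mg/kg) or MCHM-3, MCHM-4, MCHM-7, MCHM-8, PPH-205 or PPH-206 (vehicle). As shares of the genes tested, the PPH calls (1.25%, 145 genes) were 0.749% after further quantile normalization (63 risen, 24 fallen, 72.4% risen in place of 86.9%), 0.0882% (10 genes) with PPH arrays alone, 0.795% without the filter, over more genes, 0.0% with the added baseline (569 at an unadjusted p under 0.05 in limma) and 0.284% to 1.19% with 1 array left out (0.663% without PPH-202 and 0.749% without PPH-206, both vehicle). The MCHM calls (1.15%) were 0.512% with MCHM arrays alone, 0.746% without the filter, 3.38% with the added baseline and 0.465% to 1.39% with 1 array left out (62 genes without MCHM-42 or MCHM-8, 85 without MCHM-43). Quantile normalization gave 1 gene at 1 mg/kg, 4 at 10 mg/kg, 1 against crude MCHM and 1 in kidney, where leaving out 1 array gave 0 to 2 (2 without MCHM-3). The 2019 vehicle genes stayed within 1673 and 2195. The sign of the difference turned with the added baseline for Mif (-0.03), Stat5b (-0.14), Dbp (1.10) and Irf1 (-0.08), for Stat5b in treated livers directly (-0.13) and for Dbp with own 0, 1 and 10 mg/kg animals (0.09). For named genes 34 other values newly passed, 24 no longer did and 334 stayed on their side. With 1 array left out, Thyn1 passed in 7 of 18 fits, C5l1 in 5, Lactb2 in 4 and Mif in 2. Apart from the construction named, the cause was not tested. No paired analysis was possible because the groups share no replicate numbers, each rat having its own. Low signals near the filter level, as of Cacna1e, Plin1, Ube2t and Mki67, limit small differences.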

Other observations

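Mif lies on chromosome 20 among theta class glutathione transferase genes in the RefSeq annotation, with 5 annotated genes between it and Gstt3, of which 2 were tested. This group was looked up after the values had been seen. With 500 mg/kg PPH against vehicle, Mif rose by 0.64 log2 units (adjusted p 0.00019 in limma), Gstt3 by 1.28 (adjusted p 0.00048) and Gstt1 by 0.42 (adjusted p 0.00814). Between them Gstt2 gave 0.00 (adjusted p 0.994), and on the far side Ddt, a relative of Mif, gave 0.15 (adjusted p 0.0936). On the other flank Chchd10, a mitochondrial protein gene, rose by 0.21 (adjusted p 0.0372) and Smarcb1, a subunit of a chromatin remodeller, gave 0.14 (adjusted p 0.446). The MCHM changes of these genes lay between -0.04 and 0.25. Farther out, C20h22orf15 gave -0.02 (adjusted p 0.96) and Cabin1 0.09 (adjusted p 0.714) with PPH. The rise of Chchd10 passed in 3 of 9 fits with 1 array left out. Against the 1 and 10 mg/kg animals 0 genes passed at 500 mg/kg PPH in limma. By that baseline the differences of Mif and Gstt3 from MCHM were -0.03 and 0.17.

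In hormone and growth pathways the differences did not pass. Dio1, the deiodinase that activates thyroid hormone in liver, differed by 0.54 ± 0.15 (SE, adjusted p 0.158), with changes of 0.23 with PPH and -0.31 with MCHM. Stat5b, which carries the growth hormone signal, differed by 0.37 ± 0.15 (adjusted p 0.368) against vehicle and by -0.14 without the vehicle animals. Among genes of DNA synthesis and repair, Ube2t differed by 0.85 ± 0.23 (adjusted p 0.145) and fell by 0.64 on the log2 scale with MCHM (adjusted p 0.0302), while Rrm1, a subunit of ribonucleotide reductase, differed by 0.56 ± 0.19 (adjusted p 0.26) and rose by 0.50 with PPH (adjusted p 0.0421). Xpc, a damage sensor of nucleotide excision repair, differed by 0.39 ± 0.13 (adjusted p 0.26). In fat and alcohol metabolism Cyp2e1, the ethanol-oxidizing cytochrome P450, differed by -0.26 ± 0.10 (adjusted p 0.344), Slc27a5, a bile acid-CoA ligase, by -0.41 ± 0.17 (adjusted p 0.396) and Plin1, a lipid droplet coat protein, by -0.44 ± 0.15 (adjusted p 0.247). Apon, an apolipoprotein gene, differed by 0.32 ± 0.14 (adjusted p 0.44).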
